A study of Homo sapiens with 12 samples.

Results

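The response of the NRF2 pathway to Molidustat was followed in Huh7 cells through 9 genes chosen by name: NFE2L2, which encodes NRF2, its inhibitor KEAP1, and the antioxidant targets NQO1, HMOX1, GCLC, GCLM, TXNRD1, SRXN1 and SLC7A11. They are 9 of the 60666 genes listed in each count file, and all 9 passed the filter on low counts. Huh7 is an established human hepatocellular carcinoma line, and Molidustat is an inhibitor of prolyl hydroxylases, the enzymes through which oxygen leads to the breakdown of HIF-1α and HIF-2α. Cultures received 25 µM Molidustat or the solvent DMSO alone, and RNA was taken after 24 h or 48 h. This gave 4 groups of 3 libraries: DMSO 24 h, Molidustat 24 h, DMSO 48 h and Molidustat 48 h. All 12 libraries come from 1 cell line, with no genetic change in any group.

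KEAP1 holds NRF2 in the cytoplasm and presents it to a CUL3 ubiquitin ligase, so that NRF2 is degraded while the cell is unstressed. Electrophiles and oxidants modify cysteines of KEAP1, after which NRF2 accumulates, enters the nucleus, pairs with a small MAF protein and binds antioxidant response elements. The targets make glutathione, keep thioredoxin reduced, and detoxify quinones and heme, and in the liver they are best known for protection against drugs and reactive metabolites. NRF2 is controlled mainly through its protein, so that the mRNA of its targets is the usual readout of its activity.

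The core of the antioxidant response element is TGACNNNGC, where N is any base. Promoter windows of RefSeq start sites on hg38, 250 bases before to 50 after each start, were found for 7 of the 9 genes, as 10 windows. HMOX1 and SLC7A11 had none in the table. The core was searched on both strands, and 13.3% of all 35116 promoter windows hold it. Extended to 1000 bases upstream, 33.7% of them do. In the short windows it was found for KEAP1, GCLM and TXNRD1, and in the longer ones also for NQO1 and GCLC. Neither window of NFE2L2 or SRXN1 holds these letters. The following stretches are shown because NQO1 is the target with separated groups at 24 h, and KEAP1, GCLM and TXNRD1 carry the core in the short window. One stretch is given per gene. Each is written 5′ to 3′ on the strand that reads the core, which is in capitals.
NQO1, chr16:69726996-69727026, minus strand, 455 bases before the start site: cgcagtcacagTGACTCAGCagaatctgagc
GCLM, chr1:93909445-93909475, plus strand, 34 bases before the start site: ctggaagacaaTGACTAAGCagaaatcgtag
KEAP1, chr19:10502783-10502813, plus strand, 31 bases before the start site: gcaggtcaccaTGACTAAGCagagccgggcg
TXNRD1, chr12:104286919-104286949, minus strand, 102 bases before a start site inside the gene: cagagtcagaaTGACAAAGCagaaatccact
The NQO1 stretch lies upstream of the gene as annotated, and that of GCLM overlaps the first bases of the longest annotated transcript. Those of KEAP1 and TXNRD1 lie within the annotated gene, before a second start site. KEAP1 holds a further core 54 bases before the same start site. TXNRD1 holds 2 further cores, 99 and 8 bases before its first start site. A match of letters describes the sequence and was not tested as a binding site.

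Gene counts summed to between 1499273 and 9179389 per library. One library stood apart: DMSO 48 h replicate 2 had the smallest total and 50.4% of its listed reads on no annotated gene, against 17.1 to 25.6% in the other 11. Its log2 expression correlated with the other libraries at r = 0.707 to 0.782, against 0.855 to 0.956 among the others. Results at 48 h are therefore also given without it where it moved a value by more than 1.5 times or turned its sign. Levels are given as CPM, the counts divided by the TMM-scaled library size. The log2 fold change (log2FC) of Molidustat over DMSO comes from the quasi-likelihood fit of edgeR to all 12 libraries, with p-values adjusted by Benjamini-Hochberg over 14274 genes. A gene was called at an adjusted p under 0.05 with a log2FC beyond 1. The study's methods describe 3 biological replicates per condition, while the labels speak of RNA extractions in triplicate. If the latter share a culture, p-values measure technical spread between these samples.

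None of the 9 genes was called at 24 h or at 48 h. The smallest adjusted p among them was 0.999 at 24 h and 0.433 at 48 h, and 0 of 9 had an unadjusted p under 0.05 at either time, against 5.25% of all genes at 24 h and 13.3% at 48 h. There were 1 of 9 at 24 h and 2 of 9 at 48 h without DMSO 48 h replicate 2, against 9.03% and 6.60% of all genes. In the same fit 33 genes were called at each time, which is 0.231% of those tested at 24 h and 0.231% at 48 h, 33 higher and 0 lower at 24 h and 30 higher and 3 lower at 48 h. Without DMSO 48 h replicate 2, edgeR again called none of the 9, against 0.761% of genes at 24 h and 0.347% at 48 h. DESeq2 called none of them either, against 0.907% of genes at 24 h and 2.52% at 48 h. limma-voom with sample quality weights called none at 24 h and only SRXN1 at 48 h, against 0.448% of genes at 24 h and 1.95% at 48 h. The median log2FC of the 9 genes was −0.26 at 24 h and −0.31 at 48 h, beside 0.02 and 0.01 over all genes tested. At 24 h 4 were positive and 5 negative, and at 48 h 3 were positive and 6 negative. Without DMSO 48 h replicate 2 the 48 h counts were 4 and 5.

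**Figure D1:**
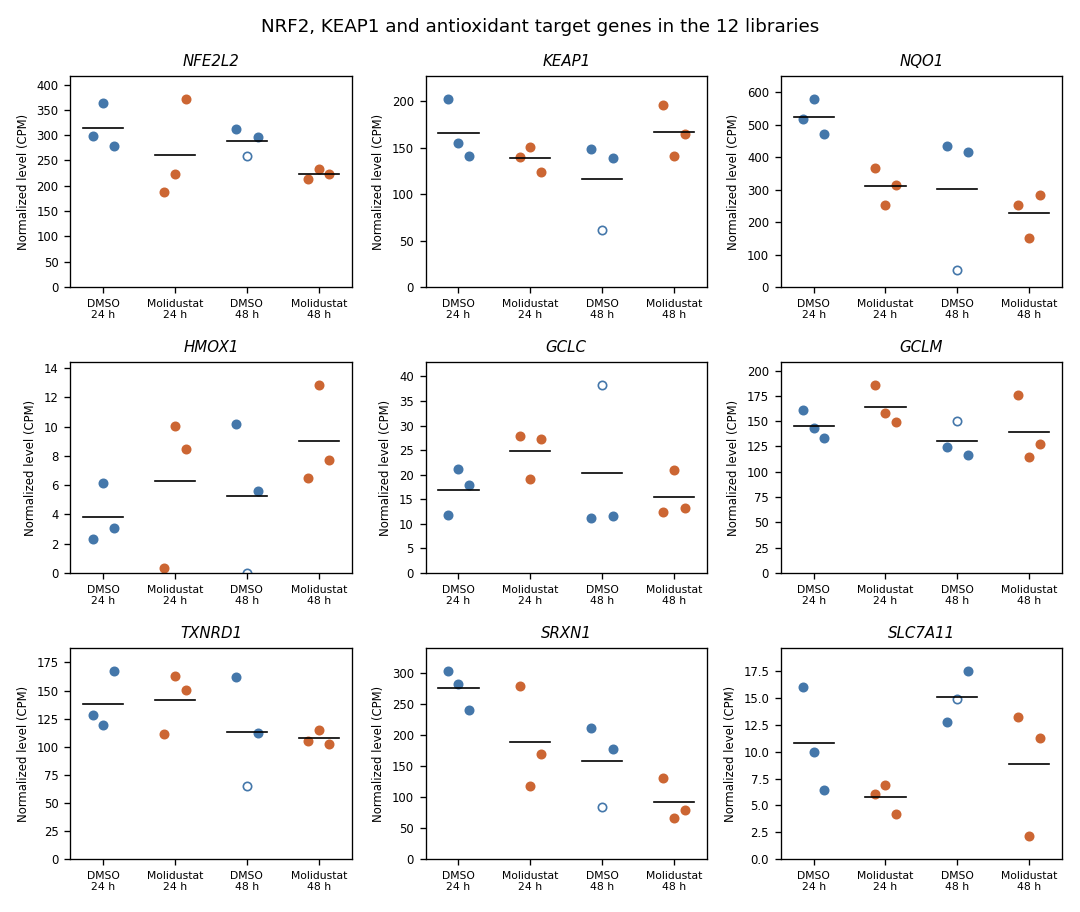
Normalized level in CPM (vertical axis, starting at 0) of each of the 9 genes in the 12 libraries, by treatment and time. Points are libraries, black bars are group means over 3 libraries, and the open circle is DMSO 48 h replicate 2, which lies far below the other DMSO libraries for NQO1 and above them for GCLC.

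The regulators showed no called difference. NFE2L2 (ENSG00000116044, chr2:177218667-177392756, GENCODE 44 on GRCh38, minus strand) stood at 299, 364 and 279 CPM in DMSO at 24 h and at 187, 224 and 372 CPM with Molidustat. The highest of the 6 libraries was thus a treated one, and the groups overlapped. At 48 h it stood at 313, 259 and 296 CPM in DMSO and at 213, 233 and 223 CPM with Molidustat, so that every treated library lay below every control. Its log2FC was −0.27 ± 0.31 (SE, n = 3 and 3) at 24 h and −0.37 ± 0.31 at 48 h, with an edgeR adjusted p of 0.672 at 48 h and a 95% interval of −1.04 to 0.29. Without DMSO 48 h replicate 2 the value at 48 h was −0.46 ± 0.28. The value at 24 h ran from −0.62 to −0.07 with each library left out in turn. The 3′ end of NFE2L2 overlaps HNRNPA3, a splicing factor gene on the opposite strand, and the strand setting of the counting is not given in the sources used here. HNRNPA3 had a log2FC of −0.01 at 24 h and −0.35 at 48 h, where its groups did not overlap either. Its part in the NFE2L2 counts was not tested.

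KEAP1 (ENSG00000079999, chr19:10486125-10503558, minus strand) measured 203, 155 and 141 CPM in DMSO at 24 h against 141, 151 and 124 CPM with Molidustat. The 48 h levels were 149, 61.7 and 139 CPM in DMSO against 196, 141 and 165 CPM with Molidustat. The single value far from the rest is that of DMSO 48 h replicate 2. Its log2FC was −0.26 ± 0.34 at 24 h and 0.51 ± 0.34 at 48 h, and 0.21 ± 0.26 at 48 h without that library. The difference between the responses at the 2 times was 0.77 ± 0.48, with an edgeR adjusted p of 0.828.

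NQO1, the quinone reductase most often used as a readout of NRF2, was lower in every treated library at 24 h but did not reach the threshold. NQO1 (ENSG00000181019, chr16:69706996-69726668, minus strand) stood at 519, 581 and 473 CPM in DMSO at 24 h and at 367, 254 and 314 CPM with Molidustat, or 524 ± 54.3 against 312 ± 56.6 CPM (SD, n = 3). It was the only 1 of the 9 genes with separated groups at 24 h, where 12.3% of all genes tested had groups that did not overlap. Molidustat over DMSO gave a log2FC of −0.75 ± 0.53 with an edgeR adjusted p of 0.999 and a 95% interval of −1.88 to 0.38. Without DMSO 48 h replicate 2, which enters the shared estimate of spread, it was −0.74 ± 0.24 with an edgeR adjusted p of 0.300.

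At 48 h NQO1 stood at 436, 51.1 and 417 CPM in DMSO and at 252, 150 and 282 CPM with Molidustat. Replicates 1 and 3 of DMSO lay above all treated libraries and replicate 2 below all of them. The log2FC at 48 h was −0.41 ± 0.53 with all libraries and −0.92 ± 0.27 without replicate 2, with edgeR adjusted p of 0.807 and 0.288. Leaving out that library thus made the difference larger without giving a call. Leaving out each of the 12 libraries in turn gave a log2FC of NQO1 at 48 h between −0.92 and −0.08. The group means ran from DMSO 24 h (524 CPM) through Molidustat 24 h (312 CPM) and DMSO 48 h (301 CPM) to Molidustat 48 h (228 CPM). DMSO 48 h was at 427 ± 12.9 CPM when replicate 2 was left out (n = 2), and then both DMSO groups lay above both treated groups.

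HMOX1 (ENSG00000100292, chr22:35380361-35394214, plus strand), the inducible heme oxygenase, had few counts. It measured 2.30, 6.16 and 3.10 CPM in DMSO at 24 h and 0.359, 10.1 and 8.46 CPM with Molidustat. The 48 h levels were 10.2, 0 and 5.58 CPM in DMSO and 6.52, 12.9 and 7.70 CPM with Molidustat. All 12 libraries rest on few reads, with 41 counts over the DMSO 24 h group and 129 over DMSO 48 h. The log2FC of 0.76 ± 0.96 at 24 h and 0.63 ± 0.95 at 48 h had 95% intervals of −1.28 to 2.81 and −1.38 to 2.64. These intervals include changes of HMOX1 in either direction, and the counts ran from 1 to 83 within the Molidustat 24 h group. The value at 48 h was 0.18 ± 0.84 without DMSO 48 h replicate 2, which held 0 counts of HMOX1.

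None of the glutathione genes was called, and their log2FC values differed in sign. GCLC and GCLM encode the catalytic and the modifier subunit of glutamate-cysteine ligase, the rate-limiting enzyme of glutathione synthesis. GCLC (ENSG00000001084, chr6:53497341-53616970, minus strand) stood at 11.7, 21.2 and 18.0 CPM in DMSO at 24 h and at 27.96, 19.1 and 27.3 CPM with Molidustat. In DMSO at 48 h the levels were 11.3, 38.3 and 11.7 CPM, beside 12.4, 21.0 and 13.2 CPM with Molidustat. Replicate 2 of DMSO 48 h was the highest of the 12 libraries, and without it every treated library at 48 h lay above both controls. The log2FC was 0.55 ± 0.49 at 24 h and −0.31 ± 0.50 at 48 h, and it turned to 0.41 ± 0.43 at 48 h without replicate 2.

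GCLM (ENSG00000023909, chr1:93885199-93909456, minus strand) varied little. It measured 161, 143 and 133 CPM in DMSO and 186, 158 and 149 CPM with Molidustat at 24 h, and 124, 150 and 116 CPM and 176, 115 and 127 CPM at 48 h. The groups overlapped at both times, with a log2FC of 0.17 ± 0.28 and 0.10 ± 0.28, or 0.20 ± 0.26 at 48 h without DMSO 48 h replicate 2. The 95% intervals, −0.43 to 0.77 at 24 h and −0.50 to 0.71 at 48 h, leave out a change of GCLM beyond 1 on the log2 scale in either direction.

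SLC7A11 (ENSG00000151012, chr4:138164097-138242349, minus strand) encodes the exchanger that brings in cystine for glutathione synthesis. It stood at 16.1, 10.0 and 6.40 CPM in DMSO at 24 h against 6.09, 6.92 and 4.23 CPM with Molidustat, and at 12.7, 14.9 and 17.6 CPM at 48 h against 13.3, 2.14 and 11.3 CPM. The treated mean was the lower one at both times, but in each case 1 library of one group reached into the range of the other. Its log2FC was −0.91 ± 0.61 at 24 h and −0.73 ± 0.60 at 48 h, on 96 to 278 counts per group. With each library left out in turn it ran from −1.20 to −0.50 at 24 h and from −1.12 to −0.32 at 48 h.

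TXNRD1 (ENSG00000198431, chr12:104215779-104350307, plus strand), the cytosolic thioredoxin reductase, had small log2FC values with all libraries. It measured 129, 119 and 168 CPM in DMSO and 111, 163 and 151 CPM with Molidustat at 24 h. The 48 h levels were 162, 64.9 and 112 CPM in DMSO and 105, 115 and 103 CPM with Molidustat. Molidustat over DMSO gave a log2FC of 0.03 ± 0.33 at 24 h and −0.08 ± 0.33 at 48 h, or −0.36 ± 0.27 at 48 h without DMSO 48 h replicate 2. The interval at 24 h ran from −0.67 to 0.74.

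SRXN1, the enzyme that repairs over-oxidized peroxiredoxins, had the lowest log2FC of the 9 genes at 48 h. SRXN1 (ENSG00000271303, chr20:646615-653200, minus strand) stood at 304, 282 and 240.0 CPM in DMSO at 24 h and at 280.0, 117 and 170 CPM with Molidustat, where 1 treated library lay within the control range. At 48 h it stood at 212, 84.1 and 178 CPM in DMSO and at 131, 66.9 and 78.9 CPM with Molidustat. The treated libraries lay below DMSO replicates 1 and 3 and overlapped with replicate 2. The log2FC was −0.54 ± 0.40 at 24 h and −0.78 ± 0.40 at 48 h, with an edgeR adjusted p of 0.433 and a 95% interval of −1.64 to 0.08 at 48 h. Without replicate 2 it was −1.09 ± 0.33 with an edgeR adjusted p of 0.317. limma-voom, which gives an aberrant library a lower weight, put it at −1.06 with an adjusted p of 0.043, the only call of a member in the fits run. With each library left out in turn, edgeR gave SRXN1 a log2FC of −0.94 to −0.30 at 24 h and −1.13 to −0.52 at 48 h.

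An annotated gene overlaps SRXN1. ENSG00000270299 (chr20:646626-675800, minus strand) covers nearly all of the SRXN1 locus on the same strand, and its counts were 0.845 to 0.911 of those of SRXN1 in every library. Its log2FC values of −0.55 at 24 h and −0.79 at 48 h lie close to those of SRXN1. Reads listed as ambiguous between genes were kept apart from the gene counts, and whether the same transcripts gave the counts of both genes was not tested.

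**Figure D2:**
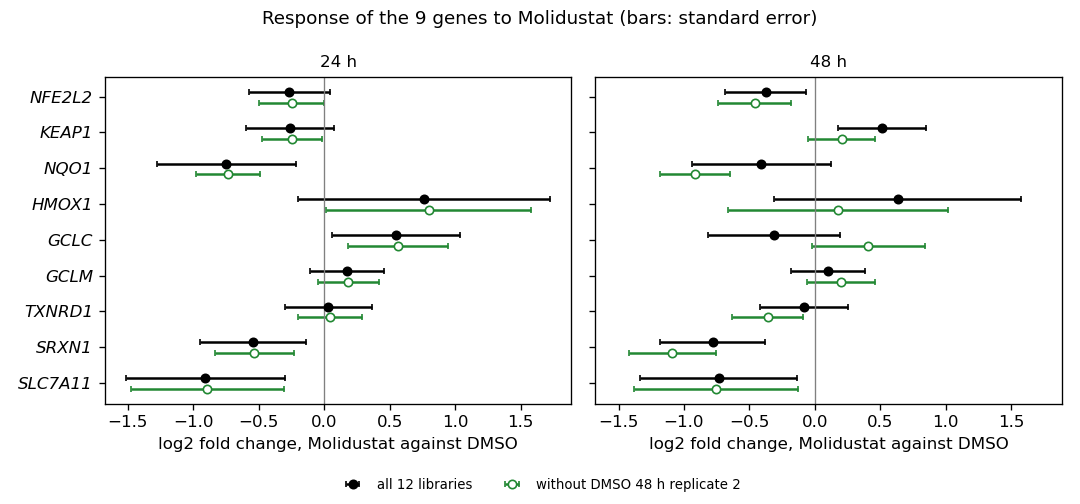
Log2 fold change of Molidustat against DMSO (horizontal axis) for each of the 9 genes, in separate panels for 24 h and 48 h, with the standard error, fitted on all 12 libraries (filled) and without DMSO 48 h replicate 2 (open). At 48 h NQO1 moves from −0.41 to −0.92, SRXN1 from −0.78 to −1.09 and GCLC from −0.31 to 0.41 when that library is left out.

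At 48 h groups that did not overlap were found for 1 of the 9 genes, NFE2L2, beside 18.0% of all genes tested. Without DMSO 48 h replicate 2 they were found for 4 of the 9, beside 29.1% of all genes. These 4 were NFE2L2, NQO1 and SRXN1, lower with Molidustat, and GCLC, higher with it.

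Time in culture was compared within each treatment. Between 24 h and 48 h no member was called in DMSO, where edgeR called 1 gene in all (0.00701%), or with Molidustat, where it called 0 genes (0%). In the latter comparison 654 genes had an unadjusted p under 0.05, DESeq2 called 12 genes and limma-voom 1. SRXN1 had the largest fold change among the 9 in that comparison, −1.03 ± 0.41 on the log2 scale from 189 ± 83.0 to 92.3 ± 34.1 CPM, with an unadjusted p of 0.022 and an edgeR adjusted p of 0.9998. In DMSO 2 of the 9 genes, NQO1 and SRXN1, had groups that did not overlap, beside 11.9% of all genes tested, and 4 of the 9 without DMSO 48 h replicate 2 (these and GCLC and GCLM, all lower at 48 h), beside 23.2%. NQO1 stood at 519, 581 and 473 CPM at 24 h and at 436, 51.1 and 417 CPM at 48 h, a log2FC of −0.79 ± 0.53 with an edgeR adjusted p of 0.760, or −0.27 ± 0.27 without that library. Every SRXN1 library at 48 h lay below every one at 24 h, 158 ± 66.1 against 275 ± 32.5 CPM, at a log2FC of −0.79 ± 0.40 and an edgeR adjusted p of 0.650. The SRXN1 value was −0.47 ± 0.34 without DMSO 48 h replicate 2. The DMSO 24 h and Molidustat 48 h groups thus held the highest and the lowest SRXN1 means, with Molidustat 24 h and DMSO 48 h between them and overlapping.

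The response to Molidustat at 48 h was set against that at 24 h through the interaction term. Here a call needed an adjusted p under 0.05, with no threshold on the fold change. No member was called, and edgeR called 0 genes of 14274 (0%), with 968 at an unadjusted p under 0.05. DESeq2 called 4 genes and limma-voom 0. The interaction of the 9 genes ran from −0.86 ± 0.70 for GCLC to 0.77 ± 0.48 for KEAP1. These values were −0.15 ± 0.57 and 0.46 ± 0.34 without DMSO 48 h replicate 2.

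The genes whose log2 CPM ran most nearly parallel to each member were listed over the 11 libraries other than DMSO 48 h replicate 2, among genes with a mean of at least 10 CPM. SRXN1 was closest to ENSG00000270299 (Pearson's r = 0.999), which overlaps it on the same strand, and then to KCMF1 (0.968). NQO1 was closest to LGI2 (0.961) and ANTKMT (0.934), and NFE2L2 to SMC4 (0.932). None of the 9 genes was among the 2 nearest of another. For the remaining members the first neighbours were MEST for KEAP1 (0.865), CAAP1 for HMOX1 (0.910), CLUAP1 for GCLC (0.922), CLTB for GCLM (0.873), CCDC6 for TXNRD1 (0.883) and GLRX5 for SLC7A11 (0.924). These values describe 11 libraries that share 4 conditions and are the highest of 9006 or 9007 comparisons each. Over all 12 libraries the same correlation was 0.339 for NQO1 with LGI2, −0.133 for HMOX1 with CAAP1, 0.386 for GCLC with CLUAP1, 0.337 for SLC7A11 with GLRX5 and 0.520 for GCLM with CLTB, so that these neighbours depend on leaving out 1 library. Between members, r over the 11 libraries ran from −0.779 for GCLC with SLC7A11 to 0.892 for NQO1 with SRXN1. Over all 12 libraries these 2 values were −0.446 and 0.777.

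The wider pathway was read from 10 lists of 102 further genes, of which 101 have a row in the files and 96 were tested. SOD2 was not matched to a row and is not analysed here. At 24 h 53 of the 96 were positive and 43 negative, with a median log2FC of 0.11 beside 0.02 over all genes. At 48 h 66 were positive and 30 negative, with a median of 0.28 beside 0.01, but without DMSO 48 h replicate 2 this became 51 and 46 of 97, with a median of 0.01. One gene of the 96 was called higher at each time and none lower. In both cases it was TXNIP. At 24 h the treated libraries lay above all controls for 5 of the 96 and below for 10, beside 12.3% of all genes in either direction. At 48 h this was 18 above and 5 below, beside 18.0%. Without DMSO 48 h replicate 2 it was 21 and 12 of 97 at 48 h, beside 29.1%.

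TXNIP, the thioredoxin-interacting protein that binds reduced thioredoxin and blocks it, was much higher with Molidustat. TXNIP (ENSG00000265972, chr1:145992435-145996579, minus strand) stood at 9.42, 9.24 and 7.85 CPM in DMSO at 24 h and at 125, 125 and 177 CPM with Molidustat. In DMSO at 48 h the levels were 23.6, 18.1 and 24.0 CPM, beside 147, 145 and 120 CPM with Molidustat. The lowest treated library, at 120 CPM, lay far above the highest control, at 24.0 CPM, and DMSO 48 h replicate 2 did not stand apart. TXNIP rose by 4.01 ± 0.32 on the log2 scale at 24 h (16.1-fold, edgeR adjusted p = 2.2e-05) and by 2.63 ± 0.30 at 48 h (6.17-fold, edgeR adjusted p = 0.00094). DESeq2 and limma-voom called it at both times, and so did every fit that left out 1 library. Its treated level was 142 ± 30.0 CPM at 24 h and 137 ± 14.6 CPM at 48 h (SD, n = 3), and its DMSO level was 8.84 ± 0.86 CPM at 24 h and 21.9 ± 3.29 CPM at 48 h. The 48 h over 24 h difference of TXNIP in DMSO, 1.33 ± 0.30 on the log2 scale, had an edgeR adjusted p of 0.541, and the difference between the 2 responses, −1.38 ± 0.41, had 0.728.

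**Figure D3:**
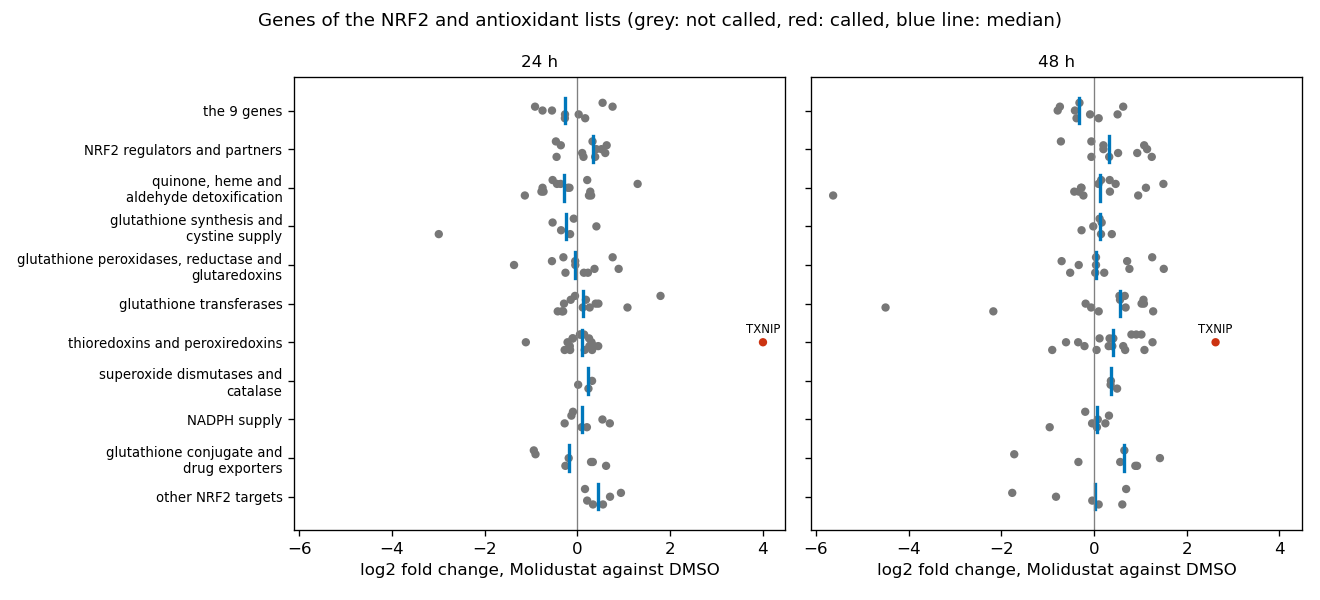
Log2 fold change of Molidustat against DMSO (horizontal axis) of the 9 genes and of the tested genes of 10 further lists, at 24 h and at 48 h. Each point is a gene, red marks genes called by edgeR and the blue line is the median of the list; TXNIP, at 4.01 and 2.63, is the only called gene.

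The other 17 tested genes of the thioredoxin and peroxiredoxin list were not called. PRDX2, an abundant cytosolic peroxiredoxin, stood at 1022, 1173 and 801 CPM in DMSO and at 1531, 923 and 1258 CPM with Molidustat at 24 h, and at 961, 230.0 and 1045 CPM against 1707, 2053 and 1625 CPM at 48 h. Its groups were apart at 48 h, beside 18.0% of all genes. The log2FC of PRDX2 there was 1.26 ± 0.46 (edgeR adjusted p = 0.242), and 0.83 ± 0.26 without DMSO 48 h replicate 2. SESN2, a stress-induced sestrin, stood at 23.0, 24.7 and 13.2 CPM against 6.81, 11.4 and 9.61 CPM at 24 h, a log2FC of −1.11 ± 0.48 (edgeR adjusted p = 0.881), and its groups overlapped at 48 h. Over the list 11 of 18 genes were positive at 24 h and 14 of 18 at 48 h, or 12 of 18 at 48 h without DMSO 48 h replicate 2. Its median log2FC at 48 h was 0.41 with that library and 0.22 without it.

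GPX4 is the peroxidase that reduces lipid hydroperoxides at the expense of glutathione. Its groups were separated at both times, beside 12.3% of all genes at 24 h and 18.0% at 48 h. It stood at 489, 453 and 535 CPM in DMSO at 24 h and at 691, 1067 and 750 CPM with Molidustat, and at 418, 213 and 507 CPM against 660, 1023 and 1045 CPM at 48 h. The log2FC of 0.76 ± 0.36 at 24 h and 1.26 ± 0.37 at 48 h missed the threshold in edgeR (adjusted p = 0.955 and 0.203). At 48 h DESeq2 called GPX4 with all libraries (1.26, adjusted p = 0.015) and without replicate 2 (1.01, adjusted p = 0.019), and limma-voom put it at 1.04 (adjusted p = 0.016). GPX8, in the endoplasmic reticulum, and GPX2, of epithelial cells, were at 13.1 CPM or less in every library and not called. In the list of glutathione peroxidases, reductase and glutaredoxins 5 of 11 genes were positive at 24 h and 8 of 11 at 48 h, or 5 of 11 at 48 h without DMSO 48 h replicate 2.

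None of the partners and competitors of NRF2 was called. BACH1, the repressor that occupies antioxidant response elements in its place, stood at 19.8, 24.7 and 16.7 CPM in DMSO and at 25.1, 14.8 and 41.3 CPM with Molidustat at 24 h. At 48 h it stood at 21.6, 4.26 and 18.8 CPM against 34.4, 33.5 and 37.6 CPM. Every treated library lay above every control, beside 18.0% of all genes with groups apart. The log2FC at 48 h was 1.15 ± 0.48 (edgeR adjusted p = 0.315), and 0.79 ± 0.41 without DMSO 48 h replicate 2. The small MAF genes MAFF and MAFK, whose proteins pair with NRF2 or BACH1, had log2FC values of 0.64 and 0.39 at 24 h and of 1.08 and 1.25 at 48 h, at 14.8 CPM or less in every library. The list held 8 positive and 3 negative genes at each time, with none called. At 48 h these were 7 and 4 without DMSO 48 h replicate 2.

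**Figure D4:**
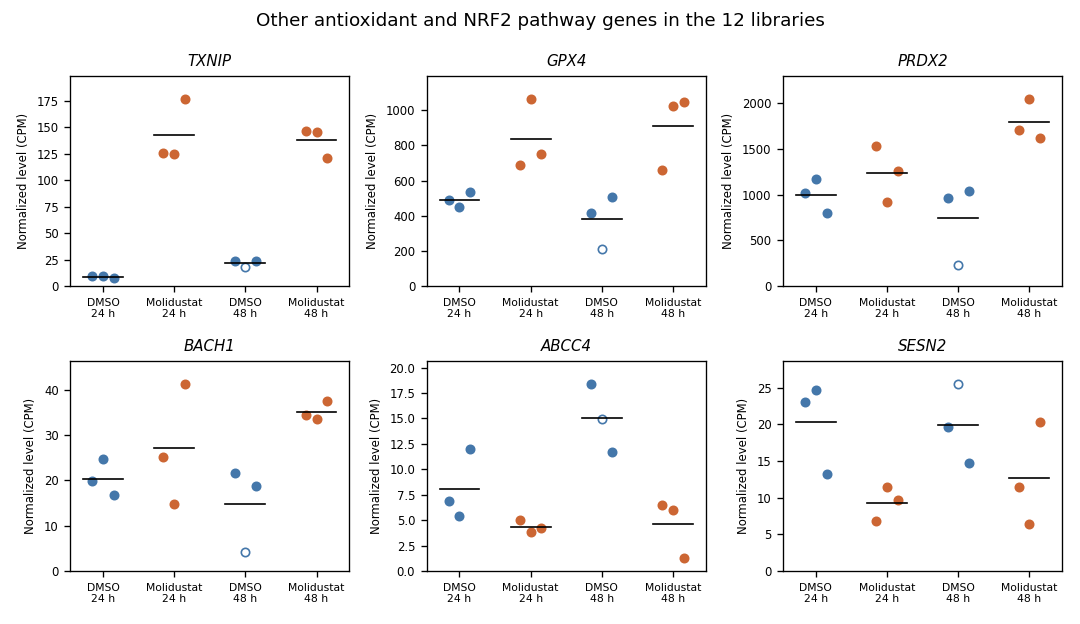
Normalized level in CPM (vertical axis, starting at 0) of TXNIP, GPX4, PRDX2, BACH1, ABCC4 and SESN2 in the 12 libraries, with group means as black bars and DMSO 48 h replicate 2 as an open circle. TXNIP lies between 120 and 177 CPM in all 6 treated libraries and at 24.0 CPM or less in all 6 DMSO libraries, and for PRDX2, GPX4 and BACH1 the open circle is the lowest DMSO value at 48 h.

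No gene of glutathione synthesis and cystine supply was called, and 1 of the 6 tested had separated groups at 24 h, beside 12.3% of all genes. CTH, the cystathionine gamma-lyase that makes cysteine, stood at 12.6, 8.47 and 11.2 CPM in DMSO and at 1.08, 0.486 and 2.50 CPM with Molidustat, a log2FC of −2.99 ± 1.17 (edgeR adjusted p = 0.808). This value was −3.89 without Molidustat 24 h replicate 3 and −2.52 without Molidustat 24 h replicate 2. At 48 h the treated values were 15.1, 0 and 15.4 CPM and the controls 6.64, 0 and 15.1 CPM, with 1 library of each group at 0. The interaction was 3.37 ± 1.55 with an edgeR adjusted p of 0.728. SLC3A2, the partner chain of SLC7A11, had a log2FC of −0.35 ± 0.32 at 24 h and −0.27 ± 0.32 at 48 h, or −0.42 ± 0.29 at 48 h without DMSO 48 h replicate 2. CHAC1, which degrades glutathione, had a log2FC of 0.41 ± 0.94 and −0.01 ± 0.91, the latter −0.10 without that library. Of the 6 genes tested in this list 1 was positive at 24 h and 4 at 48 h, but 0 of 6 at 48 h without DMSO 48 h replicate 2, where the median moved from 0.14 to −0.12.

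Among the transferases and detoxifying enzymes, none of 13 and none of 14 genes was called. GSTA2 and GSTA1, the liver alpha-class transferases, were low throughout. GSTA2 stood at 6.10, 10.6 and 7.13 CPM in DMSO at 48 h and at 0.899, 0 and 0 CPM with Molidustat, which is 124 counts over the controls and 4 over the treated libraries (edgeR adjusted p = 0.254). At 24 h it stood at 2.53, 0 and 0.207 CPM in DMSO and at 4.66, 1.70 and 0 CPM with Molidustat. GSTA1 stood at 2.71, 0 and 6.20 CPM against 0, 1.29 and 0.940 CPM at 48 h, and GSTM2 had a log2FC of 1.80 ± 1.13 at 24 h and 0.55 ± 1.11 at 48 h. AKR1B10, an aldo-keto reductase often used as a readout of NRF2, was listed at 0 in all 3 treated libraries at 48 h and at 0.949, 1.06 and 1.65 CPM in the controls, on 24 counts in all. AKR1C3 and ALDH3A1 were at 6.29 CPM or less in every library. For the transferases 7 of 13 were positive at 24 h and 9 of 13 at 48 h, or 8 of 13 without DMSO 48 h replicate 2. For the quinone, heme and aldehyde enzymes it was 5 of 14 and 8 of 14, and 5 of 14 at 48 h without that library.

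The exporters of glutathione conjugates included ABCC4, which stood at 6.89, 5.39 and 11.98 CPM in DMSO and at 5.02, 3.88 and 4.23 CPM with Molidustat at 24 h. At 48 h it stood at 18.4, 14.9 and 11.7 CPM against 6.52, 6.01 and 1.32 CPM. Its groups were apart at both times, beside 12.3% of all genes at 24 h and 18.0% at 48 h. The log2FC at 48 h was −1.72 ± 0.64 (edgeR adjusted p = 0.254), and limma-voom called it at −2.28 (adjusted p = 0.039). ABCB6, a mitochondrial porphyrin transporter, had a log2FC of 0.62 ± 0.47 at 24 h and 0.93 ± 0.48 at 48 h, and ABCC3, a basolateral exporter, one of −0.18 ± 0.75 and 1.42 ± 0.80. Of the 7 exporters 3 were positive at 24 h and 5 at 48 h, or 6 at 48 h without DMSO 48 h replicate 2.

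The remaining lists held no called gene. SOD1, its copper chaperone CCS and catalase (CAT) were positive at both times, with log2FC values of 0.02 to 0.32 at 24 h and of 0.36 to 0.50 at 48 h. Without DMSO 48 h replicate 2 the values at 48 h were 0.27 for SOD1, 0.007 for CCS and 0.20 for CAT. For NADPH supply, the pentose phosphate genes PGLS and PGD had log2FC values of 0.70 and 0.54 at 24 h and of 0.25 and 0.08 at 48 h, or 0.43 and −0.13 at 48 h without DMSO 48 h replicate 2. Among other targets FTH1, the ferritin heavy chain, had a log2FC of 0.17 ± 0.46 at 24 h and 0.70 ± 0.46 at 48 h. It stood at 582 CPM in DMSO 48 h replicate 2 against 2398 and 2609 CPM in the other controls, and its log2FC at 48 h was 0.26 ± 0.26 without that library. OSGIN1, a growth inhibitor, had a log2FC of 0.56 ± 0.87 and 0.61 ± 0.90, the former between 0.19 without Molidustat 24 h replicate 2 and 1.5 without DMSO 24 h replicate 2. UGDH, which makes UDP-glucuronic acid, reached 2367 CPM in DMSO 48 h replicate 2 against 379 and 310 CPM in its fellow controls, and its log2FC of −1.76 at 48 h was −0.22 without it. At 24 h UGDH had means of 339 CPM in DMSO and 651 CPM with Molidustat. Its log2FC at 24 h ran from 0.35 to 1.19 in the fits that left out 1 library.

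Genes driven by HIF were followed beside the pathway as a check of the labels, since Molidustat stabilizes HIF. P4HA1, a collagen prolyl hydroxylase subunit, stood at 19.98, 18.1 and 33.5 CPM in DMSO and at 118, 76.6 and 121 CPM with Molidustat at 24 h. It rose by 2.13 ± 0.37 on the log2 scale (edgeR adjusted p = 0.016), a call lost in 4 of the 12 fits that left out 1 library, those without DMSO 24 h replicate 1 or 2 and without Molidustat 24 h replicate 1 or 3 (adjusted p = 0.162, 0.153, 0.068 and 0.066). Its log2FC at 48 h was 1.24 ± 0.36 (edgeR adjusted p = 0.203). NDRG1, a stress gene, had a log2FC of 2.52 ± 0.58 at 24 h and 2.20 ± 0.57 at 48 h, called by DESeq2 at both times (adjusted p = 0.0025 and 0.0086) and not by edgeR on all libraries (0.135 and 0.178). Without DMSO 48 h replicate 2 edgeR called it at 24 h (adjusted p = 0.026) and not at 48 h (0.091). VEGFA, the vascular growth factor, had a log2FC of 1.002 ± 0.29 and 0.86 ± 0.29 (edgeR adjusted p = 0.348 and 0.230). The groups of these 3 of the 5 genes tested did not overlap at either time, beside 12.3% of all genes at 24 h and 18.0% at 48 h. EGLN3, a HIF prolyl hydroxylase itself, had a log2FC of 1.05 and 0.63, the latter 1.71 without DMSO 48 h replicate 2, and ANKRD37 one of 1.43 and 1.62. The groups of both overlapped, except for EGLN3 at 48 h without that library. CA9, with 0 to 38 counts per library, was too low to be tested in the fit to all 12 libraries, and it was tested and not called without DMSO 48 h replicate 2.

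The identity of the cells was checked with marker genes. All 8 hepatocyte markers were tested and stood at group means of 136 CPM or more, led by AFP with 6136 CPM in DMSO at 24 h. The fibroblast, endothelial and leukocyte markers had group means of 5.06 CPM or less, apart from LYZ, and CD3E and VWF were at 0 in every group. LYZ stood at 191 CPM in DMSO 24 h, 154 in Molidustat 24 h, 123 in DMSO 48 h and 54.3 in Molidustat 48 h, while PTPRC, the pan-leukocyte marker, was at 0.192 CPM or less. The hepatocyte markers had a median log2FC of 0.42 at 24 h and 1.04 at 48 h, or 0.69 at 48 h without DMSO 48 h replicate 2. At 48 h 6 of the 8 were positive. The exceptions were APOB, with means of 1228 CPM in DMSO and 894 CPM with Molidustat, and HNF4A, with 506 and 136 CPM, where DMSO 48 h replicate 2 held 1237 CPM and the log2FC was −1.88 with and −0.05 without it. The transferrin gene TF stood at means of 1209 and 2894 CPM at 24 h and of 1709 and 4895 CPM at 48 h, and without that library edgeR called it at both times (1.27, adjusted p = 0.0016, and 1.11, adjusted p = 0.035). The part of this in the values of the antioxidant genes was not tested. In bulk RNA, fewer cells with a transcript and less of it per cell cannot be told apart.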

How the data were processed

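The 12 libraries were made with a 3′ kit and sequenced on a NextSeq 500. Per the labels and the study's methods the authors used bcl2fastq 2.17.1.14, cutadapt 1.9.1, STAR 2.7.9a on GRCh38, HTSeq 0.11.2 and DESeq2 1.26.0. The annotation release, the strand setting and the use of molecular identifiers are not given in the sources used here. The deposited values are raw counts per gene. The 5 summary lines of each file name no gene and stayed out of library sizes, and reads on no gene were 17.1 to 50.4% of those listed. Replicates differed by more than sampling noise. The analysis ran on these counts in edgeR 4.0.16 (R 4.3.3): filterByExpr (minimum count 10, minimum total 15) kept 14274 of 28430 genes with a count, TMM factors were used, and 1 fit of the 4 groups over 12 libraries shared the spread. Thresholds are those of the study. Alternatives were DESeq2 1.42.0, limma-voom (limma 3.58.1) and other filters, scalings and libraries. The script was tested on simulated data. Names and positions come from GENCODE 44, promoters from RefSeq on hg38. The 9 genes and all lists were chosen with earlier results of these data known. Besides the 9, the text names each called list gene, the 3 genes of each list with the largest mean fold change over both times, the HIF genes and the 2 most similar genes of each member. Of these, 2 are not reported here. TF, APOB, HNF4A and HNRNPA3 were named after their values were seen. The replicate numbers were not used to pair the samples in the main fit.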

Additional observations from a re-analysis of the deposited data

How the results depend on the processing

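Across the alternatives tried, TXNIP kept its call at both times, and no member was called except SRXN1 at 48 h by limma-voom, which made 1 member called there. The counts of called genes moved more. At 24 h (33 in the report) they were 141 with DESeq2, 239 with DESeq2 without DMSO 48 h replicate 2, 106 with no filter on low counts, 15 with at least 10 counts in every library, 64 with limma-voom and 57 with the libraries of that time alone. At 48 h (33) they were 350, 175, 764, 15, 278 and 7 in the same order. Between the times in DMSO (1) they were 43 with DESeq2, 23 with DESeq2 without replicate 2, 3 with total counts in place of TMM, 400 with no filter, 0 with 10 counts in every library, 2 with limma-voom and 2 with libraries thinned to the smallest total. Between the times with Molidustat (0) they were 12, 94, 4 with no filter and 1 with limma-voom, and for the interaction (0) 4, 1 and 321 with no filter. The interaction counts used no threshold on the fold change. The DESeq2 fits without DMSO 48 h replicate 2 were added after seeing the data.

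Leaving out each library in turn gave 20 to 116 called genes at 24 h, 13 to 327 at 48 h, 1 to 2 between the times in DMSO, 0 to 4 with Molidustat and 0 for the interaction. The 116 was reached without DMSO 48 h replicate 2 and the 327 without DMSO 48 h replicate 1, where the aberrant library is 1 of 2 controls; without DMSO 48 h replicate 3 it was 198, and without Molidustat 48 h replicates 1, 2 and 3 it was 17, 14 and 13. Log2 fold changes that crossed 0 at 24 h ranged from −0.078 to 0.18 for TXNRD1, −0.13 to 1.28 for MAFK, −0.048 to 0.71 for BACH1, −0.090 to 0.89 for ALDH3A1, −1.40 to 1.54 for CHAC1, −0.10 to 3.77 for GSTA2, −0.12 to 0.10 for CAT, −0.61 to 0.52 for ABCC3 and −0.023 to 0.26 for FTH1. At 48 h they ranged from −0.59 to 0.41 for GCLC, −0.10 to 0.21 for GCLM, −0.36 to 0.26 for TXNRD1, −0.086 to 1.34 for CTH, −0.19 to 0.26 for CHAC1, −0.74 to 1.05 for GPX2, −0.21 to 0.92 for GSTM2, −0.13 to 0.27 for PGD and −0.45 to 1.32 for OSGIN1.

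Other settings turned the sign of small values, none of them called. With total counts these were TXNRD1 (−0.011) and CAT (−0.023) at 24 h and GCLC (0.0063) and CHAC1 (0.10) at 48 h. With limma-voom they were CHAC1 (−0.0032) at 24 h and GCLC (0.27), CTH (−0.54) and PGD (−0.10) at 48 h. With DESeq2 without replicate 2 they were GCLC (0.45), CTH (−0.057) and PGD (−0.088) at 48 h, and with thinned libraries MAFK (−0.30) at 24 h. The replicate numbers were not used to pair the samples in the main fit. With group means removed, the correlation of same-numbered libraries in different groups exceeded 0.1 in 3 of 18 pairs. It averaged 0.014, against −0.007 for libraries with different numbers. Values this small do not settle whether same-numbered libraries belong together. With the replicate number as a block, 30 genes were called at 24 h and 22 at 48 h, no member among them, and CHAC1 at 48 h was 0.29. The causes of these shifts were not tested. HMOX1 rests on 41 to 129 counts per group and SLC7A11 on 96 to 278.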
